A study of Mus musculus with 6 samples.

Results

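The troponin complex is the calcium switch of striated muscle. Troponin C binds calcium, troponin I holds the thin filament off when calcium is low, and troponin T ties the complex to tropomyosin along the actin filament. Each subunit is made in forms encoded by separate genes, and muscle fibres, heart and embryonic muscle differ in which forms they use. The genes described here are the 8 of 28892 in the gene table whose symbols are Tnnt1, Tnnt2, Tnnt3, Tnni1, Tnni2, Tnni3, Tnnc1 and Tnnc2. The rule uses their symbols and no measured value. With them go the 63 of 92513 listed transcripts that belong to these genes.

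C2C12 is a line of mouse myoblasts, which goes back to thigh muscle satellite cells of a female C3H animal aged 2 months. Wild type cells (WT) and cells in which Myod1 was knocked out by CRISPR/Cas9 (Myod1-/-) were cultured in Ndiff227, a serum-free medium, for 6 days, and 3 samples of each genotype were sequenced after rRNA removal. The knockout cells came from 1 clone selected with puromycin after lentiviral delivery, and the WT cells are not described as carrying the vector. Clone and genotype cannot be told apart, and no label says whether samples of a genotype came from separate cultures, so that p-values measure the spread between these samples, which may be technical. Values are FPKM, the fragments of a gene scaled to its exon length and to all fragments mapped in that library.

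Myod1, which encodes the myogenic transcription factor targeted here, had 17.3, 25.8 and 27.7 FPKM in the WT libraries and 0.0614, 0 and 0 FPKM in the Myod1-/- libraries, so that the labels held for all 6. Multiplied by exon length, 99.4% to 99.6% of the low FPKM of genes with 1 transcript were whole multiples (within 0.05) of the smallest step of their library. By the size of that step, the other libraries had 1.01 to 1.13 times the depth of WT replicate 1. The summed level of 7 myoblast and myotube markers was 512 to 625 FPKM in WT and 15.7 to 16.4 FPKM in Myod1-/- libraries. Ckm, the muscle creatine kinase of differentiated muscle, was at 0 or 0.0396 FPKM in the Myod1-/- libraries, and Mymk, a myoblast fusion factor, was listed at 0 in all 3. The Myod1-/- libraries thus lacked these markers of differentiation and fusion, but kept 14.0 to 14.9 FPKM of Des, the muscle intermediate filament, which made up most of their marker sum. Pax7, the satellite cell factor, was at 0.132 FPKM or less in all 6 libraries. Of the other types, 5 smooth muscle markers summed to 1695 to 1826 FPKM in WT and 127 to 135 FPKM in Myod1-/-, most of it Acta2, while Myh11 stayed at 0.0725 FPKM or less. The sums of 5 fibroblast markers were 1098 to 1279 and 208 to 234 FPKM, most of the WT sum Col1a1, while Pdgfra (8.26 to 9.58 against 21.7 to 22.3 FPKM) and Dcn (59.7 to 63.3 against 67.8 to 71.8 FPKM) were higher in the Myod1-/- libraries. Those of 8 leukocyte markers were 7.62 to 9.76 and 27.8 to 29.9 FPKM, most of it Cd68, with Ptprc at 0.0218 FPKM or less. The part of these differences in the troponin values was not tested. In bulk RNA, fewer cells of a type and less RNA per cell cannot be told apart.

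The genes form 3 pairs of a troponin I and a troponin T gene, and the troponin C genes stand alone. On GRCm38, Tnni1 (chr1:135779434-135810989) and Tnnt2 (chr1:135836354-135852260) lie on the + strand, with Lad1 between them. On chromosome 7, Tnnt1 (chr7:4504570-4516382) and Tnni3 (chr7:4518305-4524229) lie 1.92 kb apart on the - strand. Tnni2 (chr7:142441808-142444410) and Tnnt3 (chr7:142498836-142516009) lie on the + strand of the same chromosome, with Lsp1 between them. Tnnc1 (chr14:31208312-31211729, + strand) lies within the span of Nisch, which is read from the other strand. Tnnc2 (chr2:164777161-164779967, - strand) overlaps the end of Ube2c, also on the other strand.

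Promoter sequence was shown because the genes moved together and because Myod1 and related factors bind the E-box, written CANNTG. RefSeq promoters on GRCm38.p6 matched 6 of the 8 genes, Tnni1 and Tnnt2 with more than 1 start each, to give 8 promoters, and Tnni2 and Tnnt3 had no entry. The 250 bases before the start were searched on both strands for CANNTG, for CAGCTG (a form of CANNTG, so that each CAGCTG also counts as CANNTG), for CATTCC, the core of the M-CAT element bound by TEAD factors, and for TATAAA. Matches are in capitals in the promoters of the neighbours Tnnt2 and Tnni1, of Tnnc1, the most abundant in the gene table, and of Tnnc2, the troponin C gene of fast fibres.
Tnnt2, chr1:135836084-135836333, + strand: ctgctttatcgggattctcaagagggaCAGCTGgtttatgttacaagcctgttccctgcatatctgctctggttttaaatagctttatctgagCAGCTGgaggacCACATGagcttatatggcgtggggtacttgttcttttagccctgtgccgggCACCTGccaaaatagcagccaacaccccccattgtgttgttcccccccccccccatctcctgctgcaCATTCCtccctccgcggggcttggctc
Tnni1, chr1:135799171-135799420, + strand: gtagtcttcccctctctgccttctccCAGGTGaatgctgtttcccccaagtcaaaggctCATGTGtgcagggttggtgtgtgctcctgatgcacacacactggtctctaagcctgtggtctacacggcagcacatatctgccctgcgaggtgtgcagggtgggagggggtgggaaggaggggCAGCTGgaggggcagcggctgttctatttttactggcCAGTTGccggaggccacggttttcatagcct
Tnnc1, chr14:31208062-31208311, + strand: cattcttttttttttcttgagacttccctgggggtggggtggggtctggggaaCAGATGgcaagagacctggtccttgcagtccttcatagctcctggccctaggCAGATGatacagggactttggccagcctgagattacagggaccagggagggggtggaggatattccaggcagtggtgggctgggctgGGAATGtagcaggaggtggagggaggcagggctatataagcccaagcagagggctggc
Tnnc2, chr2:164779735-164779984, - strand: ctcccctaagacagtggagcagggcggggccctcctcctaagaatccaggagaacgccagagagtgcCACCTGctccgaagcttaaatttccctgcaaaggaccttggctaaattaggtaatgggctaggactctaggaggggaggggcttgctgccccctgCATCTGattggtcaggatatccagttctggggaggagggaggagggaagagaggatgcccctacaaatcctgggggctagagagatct

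All 8 troponin promoters held CANNTG, against 66.2% of 32851 promoters in the table. CAGCTG was found in 3 of the 8, which belong to Tnnt2 and Tnni1, against 13% of all promoters. The 2 Tnni1 promoters overlap and share 1 site, so that these are 3 sites in all. The Tnnt2 promoter shown held it with its first base 223 and 157 bases before the start, and the Tnni1 promoter shown 68 bases before. CATTCC stood 27 bases before the start of Tnnt2 and, on the other strand, 58 bases before that of Tnnc1, and 12.6% of all promoters held it. TATAAA was found in the promoter of Tnnt1 alone, 30 bases before the start, against 12.4% of all. A match is a run of letters and not a measured site. The starts of Tnnt2 and Tnni1 used here are not those of their most abundant listed transcripts. Tnnt2-201 begins further along the gene, at chr1:135840875, and Tnni1-201 at chr1:135805057, and the bases before these were not searched.

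All 8 troponin genes were lower in Myod1-/- than in WT cells, and in each of them the lowest WT library lay above the highest Myod1-/- library. Libraries that do not overlap in this direction were found for 36.5% of all genes tested. In limma on log2(FPKM + 0.1), 7 of the 8 genes had a mean of at least 0.5 FPKM over the 6 libraries and were tested, and all 7 fell, at an adjusted p under 0.05 over 14045 genes, where 33.3% of all genes tested fell. The eighth, Tnni3, did not pass the filter. Of the 7, only Tnnc1 and Tnnt2 had a Myod1-/- mean of at least 0.5 FPKM. The others passed the filter through their WT levels, so that their fall was set in part by the filter. The 7 log2 fold changes ran from -9.73 for Tnnc2 to -6.38 for Tnnt2, with a median of -7.50, against a median of -0.05 over all genes tested. Ordered from the largest fall among all 14045 genes, the 7 troponin genes took places 10 to 51. The added 0.1 FPKM sets the size of a fold change for genes this close to 0 in Myod1-/- cells, so that the level left in percent of the WT mean is given as well.

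Among the troponin T genes, Tnnt3, the form of fast fibres, was the most abundant per length in the gene table. It had 138.8, 150.2 and 136.7 FPKM in WT and 0.541, 0.481 and 0.364 FPKM in Myod1-/- libraries. The Myod1-/- libraries kept 0.257% to 0.382% of the WT mean, and the log2 fold change was -7.99 ± 0.12 (SE, n = 3 per genotype, limma adjusted p = 7.21e-08). Tnnt2 encodes the troponin T of heart, which embryonic skeletal muscle also makes. Its levels were 72.2, 76.6 and 68.8 FPKM in WT and 0.831, 0.748 and 0.742 FPKM in Myod1-/- libraries. It fell by 6.38 ± 0.07 on the log2 scale (SE, adjusted p = 2.63e-08), the smallest fall of the 7 at a pseudocount of 0.1 FPKM but not with a pseudocount of 1 FPKM (-5.37, against -4.27 for Tnnt1), and 1.02% to 1.15% of the WT mean was left. Tnnt1, the form of slow fibres, had 19.5, 20.8 and 19.6 FPKM in WT and 0.143, 0.0746 and 0.0393 FPKM in Myod1-/- libraries. Its log2 fold change was -6.80 ± 0.20 (SE, adjusted p = 9.05e-07), and the WT libraries spread by 3.74% of their mean (SD), the least of the 8 genes.

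Among the troponin I genes, Tnni2, the fast form, had 80.4, 90.4 and 85.8 FPKM in WT and 0.0477, 0 and 0.116 FPKM in Myod1-/- libraries. The log2 fold change was -9.18 ± 0.26 (SE, adjusted p = 7.85e-07). The Myod1-/- values amount to 5, 0 and 12 smallest steps, so that the size of this fall rests on few fragments. Tnni1, the slow form, had 60.4, 67.3 and 59.1 FPKM in WT and 0.214, 0.261 and 0.256 FPKM in Myod1-/- libraries. The latter were 54 to 64 steps, and the log2 fold change was -7.50 ± 0.09 (SE, adjusted p = 3.46e-08). Tnni3, the cardiac form, was near 0 throughout. It had 0.510, 0.466 and 0.589 FPKM in WT and 0.0208, 0.0434 and 0 FPKM in Myod1-/- libraries, and the libraries of the genotypes did not overlap. In steps these values were 63 to 89 in WT and 0 to 6 in Myod1-/-.

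Of the troponin C genes, Tnnc1, which serves slow fibres and heart, was the most abundant troponin gene in the gene table. It stood at 313.8, 367.0 and 337.9 FPKM in WT, place 108 among all listed genes by WT mean, and at 2.39, 2.20 and 2.06 FPKM in Myod1-/- libraries. The log2 fold change was -7.20 ± 0.08 (SE, adjusted p = 2.63e-08). Tnnc2, the fast form, had 97.6, 116.8 and 91.7 FPKM in WT. It was listed at 0 in 2 of the Myod1-/- libraries and at 0.0721 FPKM, or 4 steps, in the other. It fell by 9.73 ± 0.23 on the log2 scale (SE, adjusted p = 3.40e-07), the largest fall of the 7 at this pseudocount.

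**Figure D1:**
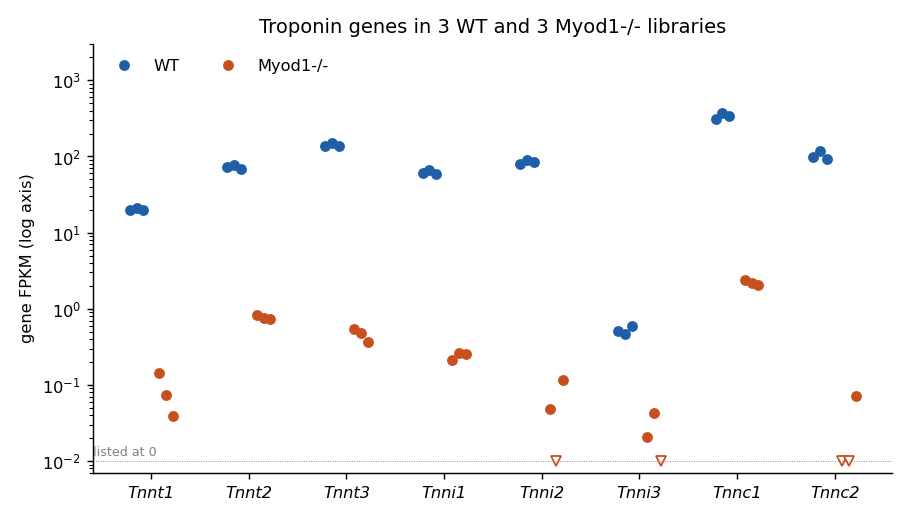
Gene FPKM of the 8 troponin genes on a log axis, with 1 point per library (3 WT, 3 Myod1-/-) and open triangles for libraries listed at 0. For each gene the 3 WT points lie above the 3 Myod1-/- points, from Tnnc1 at 313.8 to 367.0 against 2.06 to 2.39 FPKM down to Tnni3 at 0.466 to 0.589 against 0 to 0.0434 FPKM.

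Ordered by gene FPKM, the WT levels ran from Tnnc1 through Tnnt3, Tnnc2, Tnni2, Tnnt2, Tnni1 and Tnnt1 to Tnni3, and the WT ranges of neighbours in that order did not overlap, although Tnni2 (80.4 to 90.4 FPKM) and Tnnc2 (91.7 to 116.8 FPKM) came close. In Myod1-/- libraries the order began with Tnnc1, Tnnt2, Tnnt3 and Tnni1, whose ranges did not overlap, and the ranges of Tnnt1, Tnni2, Tnnc2 and Tnni3 overlapped near 0. Within each subunit the fast form had the lower log2 fold change, which was -7.99 for Tnnt3 against -6.80 for Tnnt1 and -6.38 for Tnnt2, -9.18 for Tnni2 against -7.50 for Tnni1, and -9.73 for Tnnc2 against -7.20 for Tnnc1. This order held under 14 of 14 alternative settings for troponin T and I and under 13 of 14 for troponin C. With a pseudocount of 1 FPKM, the values were -6.65 for Tnnc2 and -6.73 for Tnnc1. In percent of the WT mean left, the Myod1-/- libraries of Tnnt3 (0.257% to 0.382%) overlapped those of Tnnt1 (0.197% to 0.714%). For troponin I, Tnni2 kept 0% to 0.135% and Tnni1 0.344% to 0.420%. For troponin C, Tnnc2 kept 0% to 0.0707% and Tnnc1 0.608% to 0.703%. Those settings and percentages all use the gene table. By sums over transcripts the order turned for troponin T, where Tnnt2 kept 0.142% and Tnnt3 0.404% of the WT mean. By the main coding transcript it also turned for troponin C, with log2 fold changes of -9.89 for Tnnc2-201 and -11.62 for Tnnc1-202. Both were at or near 0 in Myod1-/- libraries. For troponin I it held, with -9.82 for Tnni2-201 and -6.48 for Tnni1-201.

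The levels depend on which table is read. Gene FPKM came out as whole multiples of the smallest step when multiplied by the length of all annotated exons of the gene joined together, models with retained introns included. That joint length is 7752 nt for Tnnt2, 3600 nt for Tnni1, 2204 nt for Tnnt1, 2063 nt for Tnni3, 1583 nt for Tnnt3, 1497 nt for Tnni2, 1041 nt for Tnnc1 and 800 nt for Tnnc2. Transcript FPKM are instead per length of 1 transcript, 1064 nt for the main Tnnt2 transcript. Summed over transcripts, Tnnt2 was the most abundant troponin gene in WT, with 385 to 413 FPKM, followed by Tnnc1 with 334 to 390 FPKM, whose range overlapped it, and Tnnt3 with 195 to 221 FPKM. The order of Tnnt2 and Tnnt3 in WT therefore reversed between the tables. In Myod1-/- libraries the sums were 0.375 to 0.673 FPKM for Tnnt2, 0.150 to 0.670 FPKM for Tnnc1 and 0.769 to 1.01 FPKM for Tnnt3.

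Not all of the signal of a gene was given to its listed transcripts, and the share differed by genotype. For Tnnt2 the transcripts took 69.9% to 73.8% of the steps of the gene in WT and 8.11% to 10.2% in Myod1-/- libraries. For Tnnc1 these shares were 72.8% to 73.1% and 3.98% to 19.4%. Tnnt3 showed no such gap, with 86.5% to 95.3% in WT and 98.7% to 98.8% in Myod1-/- libraries. Tnni1 went the other way, with 24.7% to 29.6% in WT and 42.1% to 64.2% in Myod1-/- libraries. In place of 0.653% in the gene table, the mean of the Tnnc1 transcript sums in Myod1-/- libraries was 0.115% of the WT mean, and for Tnnt2 0.142% in place of 1.07%. For Tnnt3 it was 0.404% in place of 0.326%. Nisch, which spans Tnnc1 on the other strand, had 43.9 to 46.7 FPKM in WT and 38.8 to 41.7 FPKM in Myod1-/- libraries. The library kit did not mark strand, so that reads from Tnnc1 and Nisch cannot be told apart where they overlap. Whether Nisch reads make up the 149 to 174 steps counted for Tnnc1 in Myod1-/- libraries was not tested.

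The question of which form makes up each subunit was put to shares of the summed gene FPKM. In WT, Tnnt3 made up 60.5% ± 0.29 (SD, n = 3), Tnnt2 30.9% ± 0.38 and Tnnt1 8.53% ± 0.14 of troponin T. In Myod1-/- libraries Tnnt2 was at 54.8%, 57.4% and 64.8% and Tnnt3 at 35.7%, 36.9% and 31.8%. For troponin I, Tnni2 made up 57.7% ± 1.13 and Tnni1 42.0% ± 1.17 in WT, whereas Tnni1 was at 75.8%, 85.8% and 68.9% in Myod1-/- libraries. For troponin C, Tnnc1 made up 76.9% ± 1.51 in WT and 100%, 100% and 96.6% in Myod1-/- libraries. The shares of Tnnt2, Tnnt3, Tnni1, Tnni2, Tnnc1 and Tnnc2 did not overlap between the genotypes, each at an exact two-sided permutation p of 0.1, the smallest that 3 against 3 libraries allow (0.125 after Benjamini-Hochberg adjustment over 10 shares and ratios). The share of Tnnt1 did overlap, with 9.41%, 5.72% and 3.43% in Myod1-/- libraries (exact p = 0.4). The Myod1-/- shares were taken from sums of 1.15 to 1.52 FPKM for troponin T and 0.283 to 0.372 FPKM for troponin I.

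From the transcript sums, Tnnt2 made up 61.9% ± 2.12 (SD, n = 3) of troponin T in WT and 32.3%, 42.0% and 30.8% in Myod1-/- libraries, the opposite direction to the gene table. The direction for troponin I and C was that of the gene table, with Tnni2 at 62.4% ± 8.27 in WT and 15.6%, 0% and 25.2% in Myod1-/- libraries, and Tnnc1 at 75.6% ± 1.54 in WT and 100%, 100% and 84.1% in Myod1-/- libraries. The Myod1-/- sums of Tnnc1 were 95.4% to 100% Tnnc1-201, a model with a retained intron. Its coding transcript Tnnc1-202 was at 0, 0 and 0.0198 FPKM there, against 0, 0 and 0.0814 FPKM for Tnnc2-201. The coding transcripts were thus too near 0 in Myod1-/- libraries to show whether the share shifted to Tnnc1. The ratio of summed troponin T to summed troponin I was 1.58 ± 0.04 (SD, n = 3) in WT and 5.36, 4.28 and 3.08 in Myod1-/- libraries in the gene table, and 3.24 ± 0.22 and 3.85, 1.85 and 1.5 in the transcript sums. The ratio of troponin C to troponin I was 2.98 ± 0.08 in WT and 8.44, 7.20 and 5.74 in Myod1-/- libraries in the gene table. In the transcript sums it was 2.40 ± 0.34 and 0.281, 0.773 and 0.633. The gene table thus put both ratios higher in every Myod1-/- library (exact permutation p = 0.1). In the transcript sums the ratio of troponin C to troponin I was lower in every Myod1-/- library (exact p = 0.1), and that of troponin T to troponin I overlapped between the genotypes (exact p = 0.4).

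**Figure D2:**
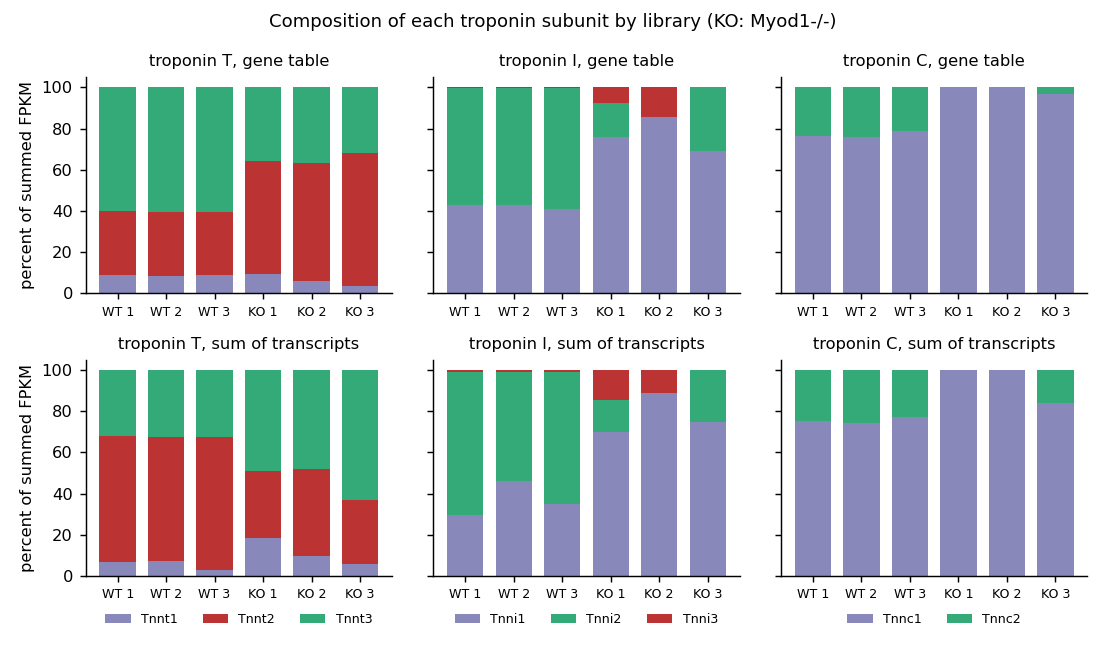
Stacked bars give the percent of the summed FPKM of a subunit that each gene took in every library, from the gene table (top) and from sums over transcripts (bottom). Tnni2 takes 53.5% to 69.8% of troponin I in the WT bars of the bottom row and 56.9% to 59.0% in those of the top row, Tnnt2 takes about 31% of troponin T in WT in the top row and about 62% in the bottom row, and Tnnc1 fills 84.1% to 100% of troponin C in the Myod1-/- bars.

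Of the 63 transcripts, 39 passed the filter on the mean, and 31 of these fell in limma and 0 rose, also at an unadjusted p under 0.05, where 9.30% of the 41216 transcripts tested fell. The median log2 fold change of the 39 was -5.31, against 0.06 over all transcripts tested. Of the 39, only Tnni1-201 had a Myod1-/- mean of at least 0.5 FPKM (0.508). The rest passed the filter through their WT levels and could hardly have risen, so that neither background is a like comparison. The 8 that did not pass the test came from Tnnt1 (1), Tnnt2 (3) and Tnnt3 (4). Tnnc1-202 (721 nt), a coding transcript of 6 exons, carried most of Tnnc1 with 311.2, 363.1 and 332.5 FPKM in WT and 0, 0 and 0.0198 FPKM in Myod1-/- libraries. It fell by 11.62 ± 0.14 on the log2 scale (SE, limma adjusted p = 6.29e-06). Tnnc1-201, a model with a retained intron, had 14.5, 15.7 and 15.9 FPKM in WT and 0.150, 0.670 and 0.410 FPKM in Myod1-/- libraries. It made up 4.03% to 4.43% of the transcript sum in WT and 95.4% to 100% in Myod1-/- libraries. Tnnc2-201 carried nearly all of Tnnc2, with 111, 133.3 and 104.8 FPKM in WT.

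For Tnni2, Tnni2-201 led with 116, 72.5 and 88.1 FPKM in WT, and Tnni2-206 followed with 20.1, 14.8 and 17.3 FPKM. Both were listed at 0 in the Myod1-/- libraries. For Tnni1, Tnni1-201 had 39.3, 79.3 and 45.5 FPKM and Tnni1-207 had 24.0, 10.8 and 15.1 FPKM in WT. Where Tnni1-201 was highest, in WT replicate 2, Tnni1-207 was lowest, while the gene itself differed little between the 3 libraries. In the Myod1-/- libraries Tnni1-201 kept 0.333, 0.736 and 0.454 FPKM. Tnni3-201, the more abundant of 2 listed coding transcripts of the cardiac gene, was at 0.753 to 0.808 FPKM in WT.

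Troponin T transcripts differ by small exons, which change the N-terminal region or the C-terminal part of the protein during development. Inclusion of an exon was taken as the FPKM of coding transcripts that hold it, in percent of all coding transcripts of the gene that span it. The exons on which the results turn are printed with 10 bases of the joined exons on each side, with the exon in capitals. They are a 30-nt exon of Tnnt2, which embryonic heart includes and adult heart skips, a 33-nt exon of Tnnt1 and a 39-nt exon of Tnnt3. The last lines give the 2 exons of 41 nt in Tnnt3 of which a coding transcript holds 1 or the other, with capitals where they differ (23 of 41 bases). In rodents the downstream exon is favoured in embryonic and newborn muscle and the upstream exon in adult muscle.
Tnnt2 30-nt exon, chr1:135843785-135843814, + strand: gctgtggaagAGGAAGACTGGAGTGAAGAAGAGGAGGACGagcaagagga
Tnnt1 33-nt exon, chr7:4513581-4513613, - strand: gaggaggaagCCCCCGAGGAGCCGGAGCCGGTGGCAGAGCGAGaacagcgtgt
Tnnt3 39-nt exon, chr7:142507750-142507788, + strand: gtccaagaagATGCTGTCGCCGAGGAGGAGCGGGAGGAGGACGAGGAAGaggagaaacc
Tnnt3 upstream 41-nt exon, chr7:142513665-142513705, + strand: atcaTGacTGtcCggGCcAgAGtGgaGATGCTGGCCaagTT
Tnnt3 downstream 41-nt exon, chr7:142514326-142514366, + strand: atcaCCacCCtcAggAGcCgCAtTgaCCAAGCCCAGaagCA

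In WT, transcripts with the downstream 41-nt exon of Tnnt3 took 98.2%, 99.9% and 98.3% of the coding transcripts that span the pair, and those with the upstream exon 1.83%, 0.0838% and 1.68%. This use of the embryonic form was alike in all 3 libraries. The 39-nt exon of the same gene was not. It was included at 3.43% in WT replicate 1 and at 97.8% and 97.2% in replicates 2 and 3, counts that take in an overlapping 38-nt variant. Tnnt3-215, which holds the exon, had 4.58, 162.8 and 172.3 FPKM, and Tnnt3-211, which lacks it, had 162.9, 0 and 0 FPKM. The gene level differed little between these libraries (138.8, 150.2 and 136.7 FPKM), and Tnnt3-211 did not pass the test (log2 fold change -3.56 ± 3.06, SE, adjusted p = 0.490).

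The 33-nt exon of Tnnt1 was included at 77.9%, 23.6% and 86.9% in WT, and Tnnt1-206, which lacks it, had 9.45, 37.5 and 2.14 FPKM. The listed transcripts took 99.6%, 98.0% and 39.2% of the steps of Tnnt1 in these libraries. The spread between WT libraries is thus too wide to give a level of this exon.

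The exons of Tnnt2 differed less between libraries. The 30-nt exon was included at 15.1%, 16.1% and 16.2% of coding transcripts in WT, so that most coding transcripts lacked the embryonic exon, and a 9-nt exon near the end of the gene (chr1:135850379-135850387) at 87.2%, 84.0% and 87.2%. The count of the 30-nt exon takes in a 34-nt variant with the same end, which made up most of it. Tnnt2-201, the main transcript, lacks the 30-nt exon and had 229.5, 235.6 and 213.2 FPKM in WT and 0 in all Myod1-/- libraries. Tnnt2-205, which holds the 34-nt variant, had 38.4, 39.1 and 39.6 FPKM in WT, out of 50.4, 54.7 and 51.1 FPKM counted as inclusion. Tnnt2-209, which holds the 30-nt exon itself, was uneven, with 3.58, 15.4 and 0 FPKM. Tnnt2-210, a retained-intron model of 292 nt, had 60.7, 64.8 and 60.4 FPKM in WT and 0.338, 0.252 and 0.195 FPKM in Myod1-/- libraries. Models with a retained intron took 17.7% to 18.1% of the transcript sum of Tnnt2 in WT and 43.5% to 96.6% in Myod1-/- libraries, at sums under 1 FPKM. Inclusion in Myod1-/- libraries is not given for any exon, since coding transcripts of the troponin T genes were at or near 0 there.

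**Figure D3:**
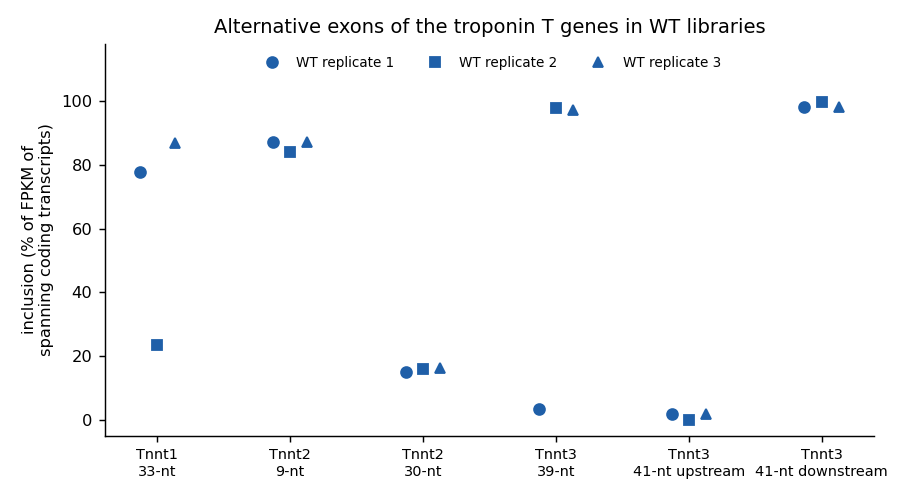
Inclusion of 6 alternative exons of the troponin T genes in the 3 WT libraries, in percent of the FPKM of coding transcripts that span the exon (circle, square and triangle for replicates 1, 2 and 3). The 30-nt exon of Tnnt2 and both 41-nt exons of Tnnt3 differ little between libraries, while the 39-nt exon of Tnnt3 is at 3.43% in replicate 1 and above 97% in the others, and the 33-nt exon of Tnnt1 lies between 23.6% and 86.9%.

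Partners on the thin filament were examined in a list of 11 genes, of which 10 were found and tested. Of these, 8 fell, 0 rose (limma, also 0 at an unadjusted p under 0.05) and 2 did not pass the test, where 33.3% of all genes tested fell and 27.9% rose. The median log2 fold change of the list was -4.43 against -0.05 over all genes. Acta1, the actin of skeletal muscle, had 1645, 1730 and 1692 FPKM in WT and 0.121, 0.0584 and 0.113 FPKM in Myod1-/- libraries. Its fall of -13.08 ± 0.13 on the log2 scale (SE, adjusted p = 2.15e-08) was larger than that of any troponin gene. Actc1, the cardiac actin, fell by 11.86. Of the genes for tropomyosin, to which troponin T binds, Tpm2 and Tpm1 kept more of their level. These values take in all forms of each gene, and which forms were kept was not tested. Tpm2 had 212.7, 307.8 and 211.2 FPKM in WT and 57.9, 54.8 and 53.2 FPKM in Myod1-/- libraries, and Tpm1 had 122.4, 132.1 and 129.9 against 33.6, 33.6 and 33 FPKM. Their log2 fold changes were -2.12 ± 0.15 and -1.94 ± 0.04 (SE). Tpm3 (0.08) and Tmod4 (-0.15) did not pass the test.

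Of the genes that mark fast fibres, 11 were listed, 6 passed the filter and all 6 fell (33.3% of all genes tested did), with a median log2 fold change of -7.13. They were led by Mylpf, the fast regulatory light chain, with 451.1 to 506.0 FPKM in WT and 0.0844 to 0.202 FPKM in Myod1-/- libraries (log2 fold change -10.99). Atp2a1, the calcium pump of fast fibres, was at -7.93, Myl1, a fast alkali light chain listed at 0 in all Myod1-/- libraries, at -9.52, and Actn3, the fast alpha-actinin, at -5.59. The value for Myl1 depends on the pseudocount. Of the adult fast myosins, Myh1 had 8.54, 7.67 and 7.82 FPKM in WT and was listed at 0 in all Myod1-/- libraries. The others listed, Myh2 and Myh4, were under the filter, with WT means of 0.347 and 0.411 FPKM. Of 11 slow fibre genes, 10 were found and 6 tested. Here 5 fell and 1 rose, at a median of -6.69, against 33.3% and 27.9% of all genes tested. Myh7, the slow and cardiac myosin heavy chain, had 17.2 to 18.2 FPKM in WT and 0.0347 to 0.0415 FPKM in Myod1-/- libraries, and Casq2 and Ankrd2 were at -8.70 and -7.52. The gene that rose was Atp2a2, which encodes the calcium pump of slow fibres and heart and, in another form, of most cells, from 58.3 ± 1.69 to 88.9 ± 1.99 FPKM (SD, n = 3, adjusted p = 2.76e-05).

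Since Tnnt2, Tnni1 and Tnnc1 are also used in adult or embryonic heart, heart markers were listed. Of 8 found, Myh6, the atrial and cardiac myosin heavy chain, had 5.15 to 6.12 FPKM in WT and 0.00860 to 0.0149 FPKM in Myod1-/- libraries, and Gata4, a cardiac transcription factor, 3.85 to 4.52 and 2.29 to 2.66 FPKM. Nkx2-5, Nppa, Nppb, Mybpc3, Ryr2 and Hcn4 were at 0.582 FPKM or less in all 6 libraries, among them the cardiac myosin-binding protein Mybpc3 at 0 in every WT library.

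Of 15 factors that act on troponin genes or on muscle genes at large, 12 were tested. Of these, 5 fell, 2 rose and 5 did not pass the test, with a median of -0.08, where 33.3% of all genes tested fell and 27.9% rose. Myog, the myogenic factor downstream of Myod1, had 197.9, 206.3 and 192.2 FPKM in WT and 0.0669, 0 and 0 FPKM in Myod1-/- libraries (log2 fold change -10.71 ± 0.20, SE, adjusted p = 1.55e-07). Myod1, Mef2a (-0.85) and Tead4 (-0.94), a TEAD factor of myoblasts, fell as well. Mef2d rose by 0.25 and Nfatc1 by 0.23 on the log2 scale, and 1 of the 2 was lost without Myod1-/- replicate 1 or 3. Srf, the serum response factor, had 20.6 to 21.3 FPKM in WT and 20.3 to 23.3 FPKM in Myod1-/- libraries, and Tead1 was at 0.05, neither past the test.

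Among 7 regulators known to act on the embryonic exon of Tnnt2 or on muscle splicing, 6 were tested, and 2 fell, 1 rose and 3 did not pass the test, against the same 33.3% lower and 27.9% higher over all genes. Ptbp1, a repressor of muscle exons, rose from 29.3 ± 6.45 to 49.7 ± 1.12 FPKM (SD, n = 3, adjusted p = 0.00437). Celf2 fell by 2.02 and Mbnl1 by 0.36 on the log2 scale, the latter at an adjusted p of 0.0388. Leaving out WT replicate 1 or 2, or Myod1-/- replicate 2 or 3, left 1 gene of this list called lower. Celf1 and Mbnl2 were at -0.08 and 0.18, and Rbfox2 spread from 14.5 to 53.1 FPKM over the 6 libraries.

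**Figure D4:**
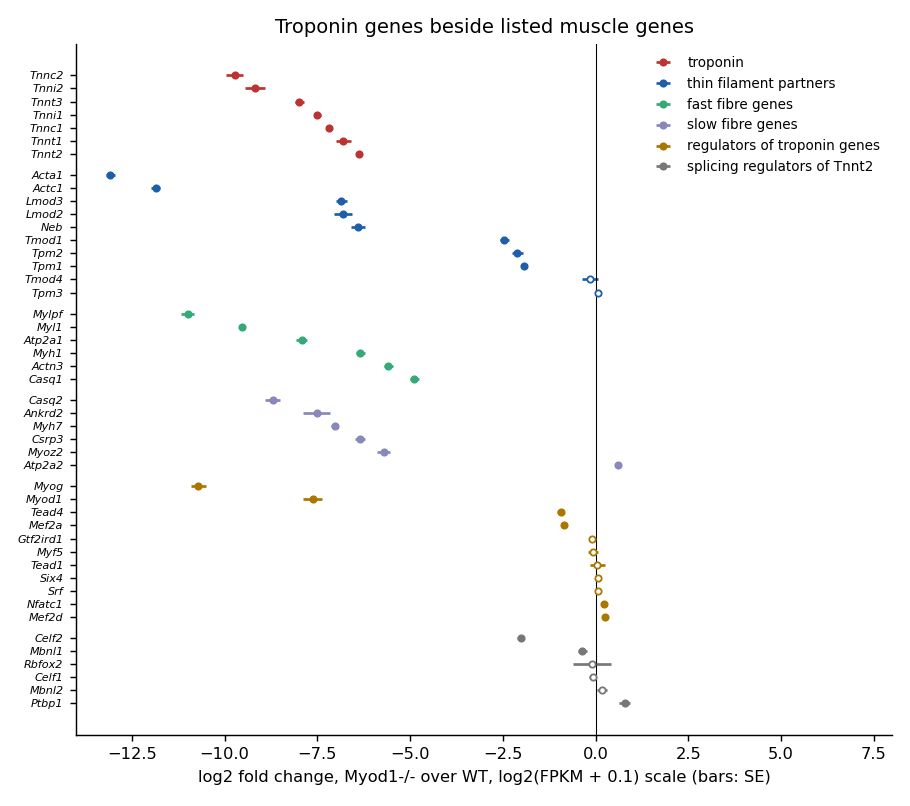
Log2 fold change of Myod1-/- over WT cells on the log2(FPKM + 0.1) scale with its SE for the 7 troponin genes tested and for the tested genes of 5 lists, 1 gene left out (filled points: adjusted p under 0.05, open points: not past the test). The troponin genes lie between -9.73 and -6.38, within the range of the fibre genes, while Tpm1, Tpm2 and Tpm3 and most regulators lie closer to 0.

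To see whether the fall took in the surroundings of the troponin genes, the 33 other genes within 50 kb of a member were listed, of which 21 passed the filter. Of these, 8 fell, 3 rose and 10 did not pass the test, with a median log2 fold change of -0.14 and a range of -3.27 to 2.25. Over all genes tested 33.3% fell and 27.9% rose, so that the fall of 8 of 21 lay near the background. None of the 21 came within the range of the troponin genes. With no filter, 11 neighbours fell and 3 rose. The 33.3% holds for filtered genes and is no background for that count. Under the filter, Lad1 had 0.246 to 0.382 FPKM in WT and 0 to 0.0527 FPKM in Myod1-/- libraries. Syt8, 1.41 kb from Tnni2, had 0.303 to 0.790 and 0.0315 to 0.160 FPKM. The surroundings were thus not free of falls. Among the 21, the largest fall was that of Ube2c, a ubiquitin-conjugating enzyme of mitosis that overlaps Tnnc2 by 1662 nt. It had 6.54, 10.2 and 8.86 FPKM in WT and 0.753, 0.781 and 0.804 FPKM in Myod1-/- libraries (log2 fold change -3.27 ± 0.16, SE, adjusted p = 8.29e-06). Without strand, reads in the shared stretch cannot be told apart, and the part of Tnnc2 reads in the value of Ube2c was not tested.

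Beside Tnni1, the LIM protein gene Csrp1 fell from 183.9, 202.8 and 190.0 FPKM to 71.4, 73.2 and 71.6 FPKM (log2 fold change -1.41 ± 0.05, SE), and Phlda3 was at -0.08. Beside Tnnt2, Pkp1, which encodes a desmosome protein, rose by 0.72 on the log2 scale, and Gm28883 was at -1.13 with a call that was lost under several settings. Between Tnni2 and Tnnt3, Lsp1 fell by 0.58. Prr33, which overlaps Tnnt3 by 7936 nt, had 0.705, 3.58 and 3.69 FPKM in WT and 1.27 to 1.88 FPKM in Myod1-/- libraries, so that WT replicate 1 stood apart, the library in which the transcripts of Tnnt3 also differed. Without that library Prr33 was at -1.13 (limma adjusted p = 0.00336), against -0.40 with all 6. Prr33 lies on the strand opposite to Tnnt3, and reads in their shared stretch cannot be told apart. The part of Tnnt3 reads in the value of Prr33 was not tested. Mrpl23, on the far side of Tnnt3, was at -0.16.

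Beside Tnnt1 and Tnni3, Ppp1r12c fell by 0.61. Dnaaf3, which overlaps Tnni3, was under the filter, with means of 0.790 FPKM in WT and 0.054 FPKM in Myod1-/- libraries. Around Tnnc1, Nisch was at -0.14, a call lost under 9 of 14 alternative settings, Sema3g fell by 1.10, Phf7 fell by 0.65 and Bap1 was at -0.02. Stab1, which encodes a scavenger receptor, rose from 0.218, 0.264 and 0.265 FPKM to 1.55, 1.53 and 1.60 FPKM (log2 fold change 2.25 ± 0.14, SE). Around Tnnc2, Gm22596 rose by 0.55, and Acot8 (0.11), Dnttip1 (0.20), Snx21 (0.06), Zswim1 (-0.04), Zswim3 (-0.22) and Gm11457 (-0.04) did not pass the test.

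**Figure D5:**
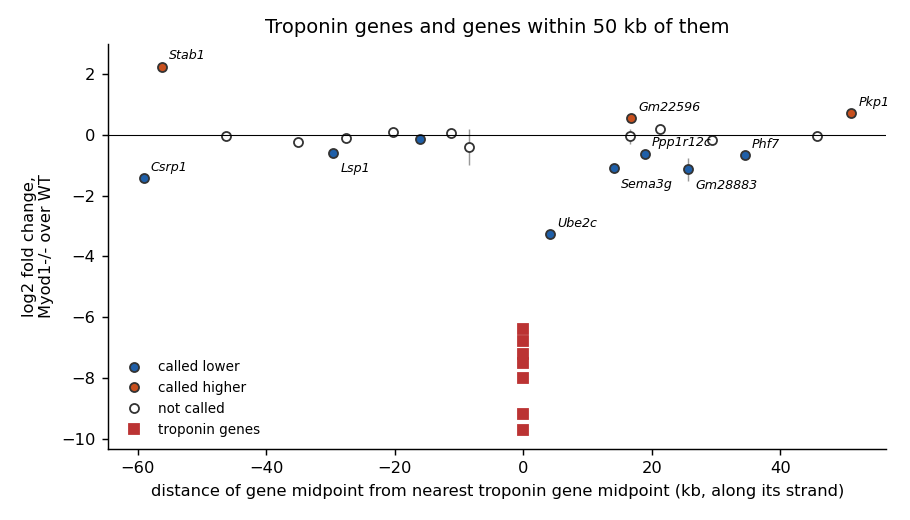
Log2 fold change of Myod1-/- over WT cells with its SE for 21 genes within 50 kb of a troponin gene, by the distance of their midpoint from that of the nearest troponin gene along its strand, with the 7 tested troponin genes at 0 kb. The neighbours lie between -3.27 and 2.25, above all troponin genes.

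The gene whose level over the 6 libraries lay closest to each troponin gene, by the root mean square difference of log2(FPKM + 0.1), was Igfbp2 for Tnnt1 (0.27), Cacng1 for Tnnt2 (0.39), Casq2 for Tnni2 (0.27), Rtn4r for Tnni3 (0.14), Tagln for Tnnc1 (0.70) and Mylf-ps for Tnnc2 (0.34). Atp2a1 was closest both to Tnni1 (0.31) and to Tnnt3 (0.92). Cacng1, a subunit of the calcium channel of skeletal muscle, had WT and Myod1-/- means of 54.2 and 0.999 FPKM, near the 72.5 and 0.774 FPKM of Tnnt2. Tagln, an actin-binding protein of smooth muscle and myofibroblasts, had means of 190.0 and 3.17 FPKM against 339.6 and 2.22 FPKM for Tnnc1. These are likenesses of level over 6 libraries that share 1 difference between genotypes.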

How the data were processed

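RNA of 3 WT and 3 Myod1-/- C2C12 samples was analysed. The authors removed rRNA, built libraries with NEBNext Ultra, which does not mark strand, and sequenced them on a NovaSeq instrument. The processing notes name bcl2fastq, fastp, FastQC, HISAT2 and TopHat with GRCm38, and StringTie gave the FPKM. Tool versions and the annotation are not given in the sources used here. The deposited FPKM of 28892 genes and 92513 transcripts were used as they are. The files hold no counts.

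Columns named NC and NK were assigned to samples through the paper's supplementary list of genes, in which 3200 of 3200 genes matched in all 6 values (relative tolerance 0.001). Values were log2(FPKM + 0.1). Genes and transcripts with a mean of at least 0.5 FPKM were fitted by genotype with limma 3.58.1 (eBayes, intensity trend) in R 4.3.3, with Benjamini-Hochberg adjustment over all features tested, and called at 0.05. The fit was tested on simulated data. Shares and ratios were compared by the exact permutation test in scipy 1.17.1. Python 3.11.15, numpy 2.4.6, pandas 2.3.3 and matplotlib 3.10.9 were used. Exon lengths, transcript names and exon sequences came from GENCODE on GRCm38, and promoters from RefSeq (GRCm38.p6).

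The members and lists were chosen with earlier results of these data known. Named are all 8 genes, their transcripts of at least 0.5 FPKM in a genotype, up to 4 genes of each list with the highest mean, tested genes within 50 kb, and the closest profile of each gene. Other genes were named after their values were seen, to complete a count. Genes on a list but not in the table were not analysed here, and 1 listed gene, although counted, is not reported here by name. Alternatives were other pseudocounts, filters and scalings, no trend, a replicate block and leaving out each library.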

Additional observations from a re-analysis of the deposited data

How the results depend on the processing

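The 7 troponin genes fell under all 14 alternatives, with adjusted p of 7.55e-05 or less, while the fold changes moved with the pseudocount (Tnnc2 from -12.30 to -6.65). Between 27 and 37 troponin transcripts fell over the alternatives, against 31. Replicate numbers did not pair the samples: deviations of same-numbered WT and Myod1-/- libraries correlated at -0.103, -0.138 and -0.029. With the replicate block 7 troponin genes and 27 transcripts fell.

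Rescaling each library to the same sum gave 1 thin filament gene higher in place of 0, and no filter gave 10 fast fibre genes lower. Splicing regulators lower were 1 with quantile normalization or without the trend. Leaving out a library gave 1 to 2 regulators of troponin genes higher and 1 to 2 splicing regulators lower. Transcript sums gave Tnnt2 61.9% of troponin T in WT and 35.1% in Myod1-/- cells (30.9% and 59.0% in the gene table), Tnni2 62.4% in WT, Tnnc1 94.7% in Myod1-/- cells, T to I ratios of 3.24 and 2.40 and C to I ratios of 2.40 and 0.562. The tables divide by other lengths, and the cause was not tested further.

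Signs reversed only for genes that had not passed the test. Without 1 library the log2 fold change ran from -0.40 to 0.49 for Rbfox2, -0.16 to 0.0203 for Celf1, -0.0103 to 0.18 for Snx21, -0.12 to 0.0708 for Zswim1 and -0.20 to 0.17 for Gm11457. With quantile normalization Zswim1 was at 0.00785 and Gm11457 at 0.18, and rescaled to the same sum Zswim1 was at 0.0387, Gm11457 at 0.0270 and Bap1 at 0.0523. Values of a few steps limit the size of the falls of Tnni2 and Tnnc2.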
